A study of Mus musculus with 9 samples.

Results

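Phagocytes recognise, take up and digest dying cells through a set of genes, of which 10 were followed on 9 Affymetrix arrays of mouse oviduct RNA. They are the bridging molecules Mfge8, Gas6 and Pros1, the TAM receptors Axl, Mertk and Tyro3, the receptors Itgav, Timd4 and Cd36, and the lysosomal gene Gpnmb. The genes were chosen by symbol, each through its 1 probe set, out of 19937 genes and 28214 probe sets. The list was drawn up with results of these same arrays known, the higher Gpnmb of diestrus among them, so all that follows on the 10 genes is description, and no p-value is printed for them.

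The oviducts came from CD1 female mice without hormonal stimulation, and each array carried RNA of tissue pooled from 5 animals. The groups were 3 pools of sexually mature females in diestrus, 3 of sexually mature females in estrus and 3 of sexually immature females marked d21, which the labels call controls. No age is given in the labels for the mature females, and no genetic change or drug was part of any group. Values are log2 intensities after robust multi-array averaging (RMA), whose array medians lay between 8.846 and 8.902. Pearson correlations over all probe sets were 0.992 to 0.996 within groups and 0.990 to 0.995 between them, and no pair of arrays was identical. Of 8 markers of oviduct epithelium, such as Pax8 and Foxj1, none lay below its array's median on all 9 arrays, and their summed log2 values were 95.2 to 96.6 in diestrus, 95.7 to 96.2 in estrus and 96.0 to 97.2 in immature oviduct. The number of arrays limits the precision, with a median standard error of 0.08 for a log2 difference.

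A dying cell exposes phosphatidylserine on its surface. Bridging molecules bind that lipid and a receptor on the phagocyte at the same time: Mfge8 links it to integrins that contain the alpha V subunit (Itgav). Gas6 links the lipid to the tyrosine kinases Tyro3, Axl and Mertk, and protein S (Pros1) links it to Tyro3 and Mertk. The receptor Tim-4 (Timd4) binds the lipid directly, and the scavenger receptor Cd36 takes up oxidised lipids and apoptotic cells. The engulfed body is digested in lysosomes, and Gpnmb is a membrane glycoprotein of lysosomes and melanosomes that lipid-loaded macrophages make in large amounts. In bulk tissue such as whole oviduct, more cells of a type and more RNA per cell cannot be told apart.

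For 4 of the 10 genes, Mfge8, Mertk, Itgav and Gpnmb, every diestrus array lay above every estrus and every immature array, as for 2.12% of all probe sets. Nothing is read from that share, since the genes were picked with results known, and Itgav cleared estrus by 0.007. Their promoter windows are shown because of this order of the arrays. Each holds 300 bases of GRCm38.p6 from RefSeq, with 250 before the gene's start and 50 after it, read 5′ to 3′ on the gene's strand. All 10 genes matched a window. Capitals mark a GC box (GGGCGG on either strand) or an AP-1 site (TGANTCA on either strand), and no 2 marked motifs overlap.
Mfge8 promoter, chr7:79149011-79149310, minus strand: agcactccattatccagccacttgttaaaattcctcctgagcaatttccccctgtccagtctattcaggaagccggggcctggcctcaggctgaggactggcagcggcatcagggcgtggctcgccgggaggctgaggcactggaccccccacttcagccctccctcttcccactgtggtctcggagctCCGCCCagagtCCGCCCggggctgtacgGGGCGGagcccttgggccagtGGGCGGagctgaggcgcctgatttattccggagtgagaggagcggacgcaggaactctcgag
Mertk promoter, chr2:128698665-128698964, plus strand: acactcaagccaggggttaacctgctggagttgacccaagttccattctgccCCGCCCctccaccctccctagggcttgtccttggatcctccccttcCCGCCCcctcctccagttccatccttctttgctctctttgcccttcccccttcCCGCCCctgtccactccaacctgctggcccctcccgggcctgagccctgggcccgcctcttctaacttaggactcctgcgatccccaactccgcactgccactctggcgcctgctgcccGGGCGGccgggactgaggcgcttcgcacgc
Itgav promoter, chr2:83724147-83724446, plus strand: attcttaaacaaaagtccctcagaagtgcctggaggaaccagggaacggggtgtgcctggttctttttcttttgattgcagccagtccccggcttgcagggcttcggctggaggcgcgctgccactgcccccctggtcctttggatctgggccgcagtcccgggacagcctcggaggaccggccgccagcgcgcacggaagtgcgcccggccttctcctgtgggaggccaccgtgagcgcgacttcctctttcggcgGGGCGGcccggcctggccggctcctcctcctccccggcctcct
Gpnmb promoter, chr6:49036268-49036567, plus strand: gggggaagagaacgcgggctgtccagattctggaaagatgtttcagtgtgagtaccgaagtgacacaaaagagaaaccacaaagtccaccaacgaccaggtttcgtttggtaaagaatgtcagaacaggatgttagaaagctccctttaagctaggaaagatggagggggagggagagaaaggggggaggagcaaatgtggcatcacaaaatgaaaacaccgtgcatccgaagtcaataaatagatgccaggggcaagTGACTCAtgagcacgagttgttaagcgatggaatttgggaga

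The Mfge8 window held 4 GC boxes, beginning at positions -61, -50, -33 and -12 relative to the gene's start, that of Mertk 4 and that of Itgav 1. Gpnmb had none. It held the only AP-1 site among the 10 genes, 8 bases past the start. A GC box stood in 8 of the 10 windows and in 35.7% of 32851 windows of that length, and an AP-1 site in 7.81% of them. Guanine and cytosine made up 64.3% of the window of Mfge8, 66.0% for Mertk, 67.3% for Itgav and 47.7% for Gpnmb, against a median of 52.7% over all windows. The E-box core CACGTG (7.15% of windows), the M-box TCATGTG (3.77%), TATAAA (13.6%), the palindromic elements of the progesterone and glucocorticoid receptors, found in 0.475% of windows, and of the estrogen receptor, found in 0.07%, matched none of the 10 windows on either strand. The motifs were picked after the sequences had been seen, and a match is a run of letters, not a shown site.

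Among the bridging molecules Mfge8 was higher in diestrus than in both other groups, and Gas6 and Pros1 did not pass the threshold, a Benjamini-Hochberg adjusted p of 0.05 in limma across the 28214 probe sets. Mfge8, also called lactadherin or milk fat globule factor, had log2 values of 11.34, 11.53 and 11.28 in diestrus, 10.54, 10.72 and 10.58 in estrus, and 10.80, 10.69 and 10.85 in immature oviduct. The lowest diestrus pool was 0.56 above the highest estrus pool and 0.44 above the highest immature pool, whereas estrus and immature pools overlapped. Diestrus averaged 11.38 ± 0.13, estrus 10.61 ± 0.10 and immature oviduct 10.78 ± 0.08 (SD, n = 3 each). The log2 difference was 0.60 ± 0.08 (SE) between diestrus and immature oviduct, 1.52-fold in intensity, and 0.77 ± 0.08 between diestrus and estrus, 1.70-fold. Both passed the threshold. Estrus differed from immature oviduct by -0.16 ± 0.08, which did not. Mfge8 was picked with results of these arrays known, so these comparisons are description.

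Those comparisons share arrays, diestrus with diestrus and immature with immature, and are not independent of each other. For Mfge8, the difference from immature oviduct was no longer past the threshold without diestrus 2 (0.53), immature 1 (0.61) or immature 2 (0.56). The difference from estrus was not past it without diestrus 2 (0.70), estrus 1 (0.73) or estrus 3 (0.75). Over all probe sets, calls against immature oviduct fell from 282 to 45 without diestrus 2, 58 without immature 1 and 41 without immature 2. Diestrus 2 held both the highest Mfge8 and the highest sum of ovarian markers. Cyp17a1, Cyp11a1, Star, Akr1c18 and Hsd3b1 peaked there. Inha, Inhba, Amh, Fshr and Foxl2 peaked on immature 2, where Mfge8 was 10.69. Over 10 measured of 12 markers of follicles and corpora lutea, summed log2 values were 80.1 to 94.7 in diestrus, 79.9 to 81.4 in estrus and 79.7 to 90.9 in immature oviduct, with 94.7 on diestrus 2 and 90.9 on immature 2. Fshr and Amh lay below the array median on all 9 arrays. Star, which moves cholesterol into mitochondria, was the 1 marker called, 0.74 ± 0.14 higher in diestrus than in immature oviduct (limma adjusted p = 0.0463), where 1.0% of all probe sets were called. Star lay below the array median on 7 of the 9 arrays, all 3 immature ones among them, so its detection there was not established. The marker lists, too, were drawn up with results of these arrays known. Without diestrus 2 and immature 2 together, Mfge8 differed by 0.49 from immature oviduct and by 0.70 from estrus, neither past the threshold. Against immature oviduct 10 of all probe sets were called in that fit.

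Gas6, the ligand of all 3 TAM receptors, read 11.64, 11.55 and 11.56 in diestrus, 11.44, 11.54 and 11.48 in estrus, and 11.53, 11.50 and 11.57 in immature oviduct. Diestrus and immature pools overlapped. Diestrus exceeded estrus by 0.09 ± 0.05 with 0.005 between the nearest pools, and the 95% interval of the difference from immature oviduct was -0.07 to 0.17. Pros1, an anticoagulant plasma protein that also activates Tyro3 and Mertk, stood at 9.25, 9.49 and 10.07 in diestrus, 9.13, 9.35 and 9.36 in estrus, and 9.33, 9.39 and 9.92 in immature oviduct. Its high values were those of 1 diestrus and 1 immature pool, diestrus 3 and immature 3, and every pair of groups overlapped. The difference between diestrus and immature oviduct was 0.05 ± 0.21, and -0.18 without diestrus 3, the highest Pros1 array, whose removal must lower it.

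Of the TAM receptors, Mertk separated diestrus from both other groups, but none of the 3 passed the threshold in any comparison. Mertk, the receptor by which macrophages and retinal pigment cells take up cell remains, had values of 9.10, 9.13 and 9.27 in diestrus, 8.75, 8.93 and 8.75 in estrus, and 8.93, 8.85 and 8.68 in immature oviduct. Means were 9.17 ± 0.09 in diestrus, 8.81 ± 0.11 in estrus and 8.82 ± 0.13 in immature oviduct (SD, n = 3 each). Diestrus minus immature came to 0.35 ± 0.08, with a 95% interval of 0.16 to 0.54, and diestrus minus estrus to 0.36 ± 0.08 (0.17 to 0.54). Estrus and immature pools overlapped (-0.01 ± 0.08). On 4 of the 9 arrays Mertk lay below the array's median.

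Axl, which responds to Gas6 and restrains inflammation, was high on a single array. It measured 10.13, 10.29 and 10.87 in diestrus, 10.01, 10 and 10.07 in estrus, and 10.15, 10.12 and 10.12 in immature oviduct. Diestrus minus immature was 0.30 ± 0.15 over all arrays and 0.09 without diestrus 3, and diestrus minus estrus was 0.40 ± 0.15 and 0.18 without it. Since diestrus 3 is the highest Axl array, leaving it out must lower both differences. The 3 estrus pools all lay below the 3 immature pools, by 0.04 at the nearest. Tyro3, the TAM receptor best known from brain and testis, had values of 10.11, 10.07 and 9.91 in diestrus, 9.88, 9.72 and 9.88 in estrus, and 9.83, 9.89 and 10.02 in immature oviduct. It exceeded estrus by 0.20 ± 0.08 in diestrus and overlapped with immature oviduct (0.12 ± 0.08).

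**Figure D1:**
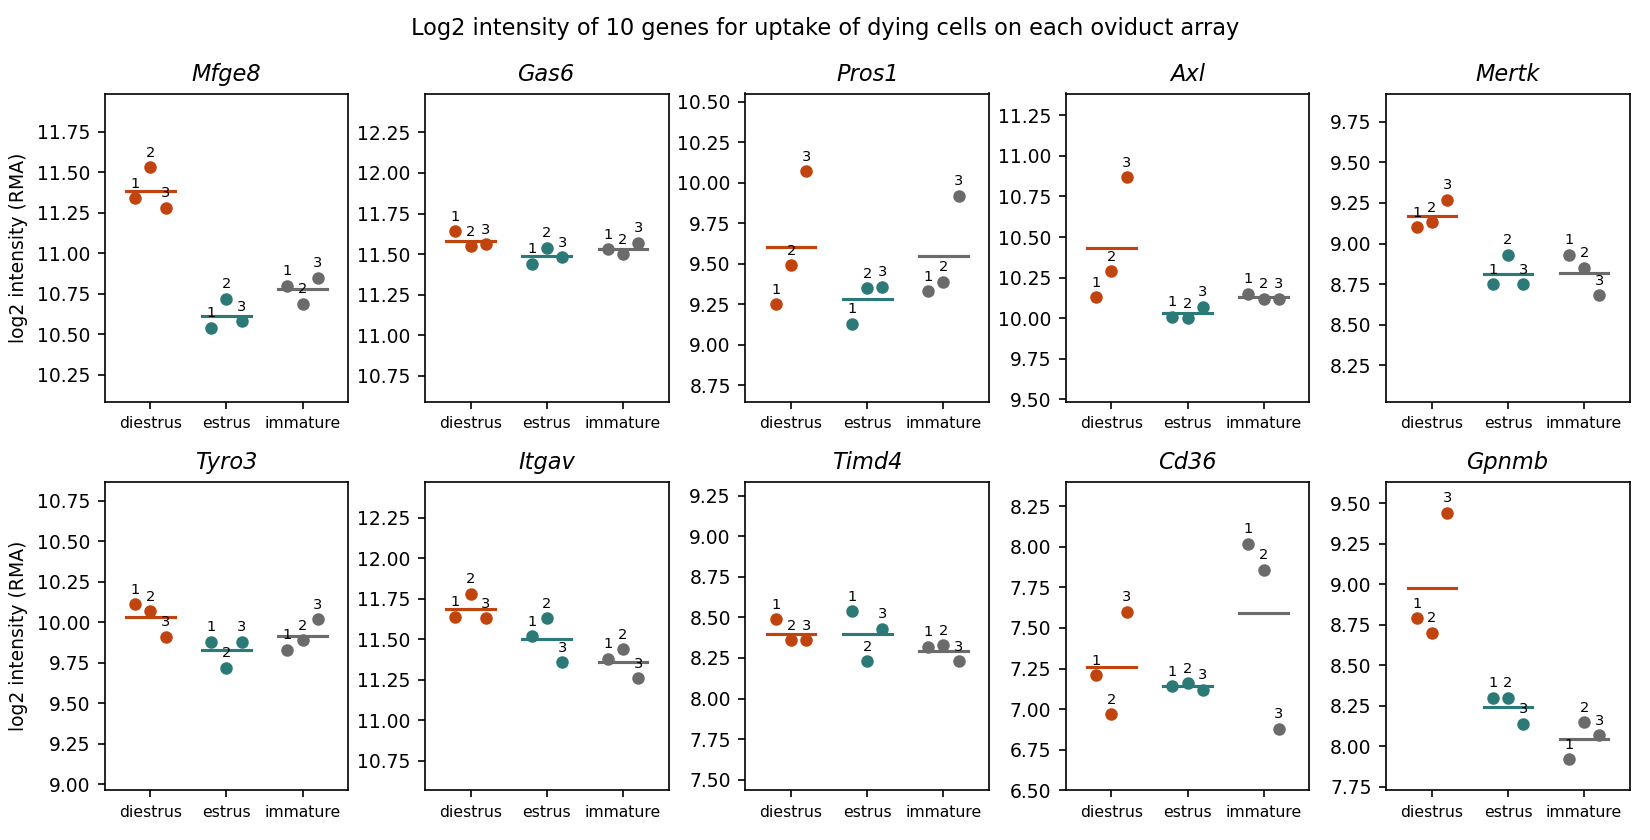
Log2 intensity (RMA) of the 10 genes on each array, with points numbered by pool and a line at each group's mean. Each panel has its own level but all span the same range of log2 units. Diestrus pools of Mfge8 lie at 11.28 to 11.53, above all others, Axl is highest on diestrus 3 (10.87), and Cd36 is high on immature 1 (8.02) and immature 2 (7.86).

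Itgav encodes the integrin alpha V subunit to which Mfge8 binds. Its values were 11.64, 11.78 and 11.63 in diestrus, 11.52, 11.63 and 11.36 in estrus, and 11.38, 11.44 and 11.26 in immature oviduct. Diestrus lay wholly above immature oviduct, by 0.33 ± 0.08 on average (95% interval 0.14 to 0.51), and above estrus by 0.18 ± 0.08 with 0.007 between the nearest pools. Neither difference passed the threshold. Among the subunits that pair with it, Itgb5 differed by 0.33 ± 0.11 between diestrus and immature oviduct and by 0.45 ± 0.11 between diestrus and estrus (limma adjusted p = 0.234 and 0.179), and Itgb3 by 0.15 ± 0.14 and 0.20 ± 0.14 (limma adjusted p = 0.718 and 0.813). Itgb3 was named after its values had been seen.

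The phosphatidylserine receptor gene Timd4, a marker of resident macrophages, stood at 8.49, 8.36 and 8.36 in diestrus, 8.54, 8.23 and 8.43 in estrus, and 8.32, 8.33 and 8.23 in immature oviduct. All 9 values lay below the median of their array, and detection of this RNA was not established. The diestrus pools were above the immature ones by 0.03 at the nearest, and estrus overlapped with both. Cd36, the scavenger receptor and fatty acid transporter, had values of 7.21, 6.97 and 7.60 in diestrus, 7.14, 7.16 and 7.12 in estrus, and 8.02, 7.86 and 6.88 in immature oviduct. It, too, was below the array median throughout, and below the lower quartile on 7 of 9 arrays. Immature oviduct held both the highest and the lowest pool.

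The fat cell markers, too, were high on immature 1 and 2. Over 7 measured of 8 such markers, summed log2 values were 56.6 to 58.5 in diestrus, 57.1 to 58.3 in estrus and 57.8 to 61.9 in immature oviduct, with 61.9 on immature 1 and 60.3 on immature 2. Adipoq, Lep and Pck1 lay below the array median on all 9 arrays. Limma called 0 of the 7 in any comparison. At an unadjusted p under 0.05 there were 3 between diestrus and immature oviduct (13.4% of all probe sets), 3 between estrus and immature oviduct (6.52%) and 0 between diestrus and estrus (9.33%). Across the 9 arrays, which share their normalization, Cd36 and the mean of the fat cell markers correlated at 0.91. Diestrus minus immature was -0.33 ± 0.26 for Cd36 over all arrays and 0.38 without immature 1 and 2. Those are also the highest Cd36 arrays, so leaving them out fixes that direction. The part of fat cells in the Cd36 values was not tested.

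Gpnmb, the lysosomal glycoprotein, had the largest difference of the 10 genes between diestrus and immature oviduct. It read 8.79, 8.70 and 9.44 in diestrus, 8.30, 8.30 and 8.14 in estrus, and 7.92, 8.15 and 8.07 in immature oviduct. Every diestrus pool lay above every other pool, and diestrus 3 was the highest. On the other 8 arrays the value was below the array's median, among them diestrus 1 and 2, so detection of Gpnmb was not established on those arrays, and the differences hold for intensities only. Means were 8.97 ± 0.40 in diestrus, 8.25 ± 0.09 in estrus and 8.04 ± 0.12 in immature oviduct (SD, n = 3 each). The difference was 0.93 ± 0.17 against immature oviduct, past the threshold, and 0.73 ± 0.17 against estrus, not past it. Without diestrus 3, the highest pool, these were 0.70 and 0.50, and its removal must lower both. The call against immature oviduct was kept without diestrus 3 and lost without any other single array, at differences between 0.87 and 1.07. In the fits that lost it, 41 to 257 of all probe sets were called, against 282 with all arrays. Gpnmb was listed with its higher diestrus values known, so the call describes these arrays and is not a test of that rise.

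Counted together, 2 of the 10 genes, Mfge8 and Gpnmb, were called higher in diestrus than in immature oviduct and 0 lower, where 1.0% of all probe sets were called, 0.294% higher and 0.705% lower. In diestrus against estrus 1 of 10, Mfge8, was called higher and 0 lower, where 0.159% of all were called, 0.0673% higher and 0.0922% lower. Nothing is read from these shares, since the genes were picked with such results known. In estrus against immature oviduct limma called 0 of 10, where 0.0851% of all probe sets were called, 0.0319% higher and 0.0532% lower, and 0 of 10 had an unadjusted p under 0.05, where 6.52% of all had. Pools did not overlap for 5 genes, all higher in diestrus than in immature oviduct, where 18.4% of all probe sets did not overlap, 7.52% higher and 10.9% lower. They did not overlap for 7 genes, all higher in diestrus than in estrus, where 11.8% of all did not, 4.93% higher and 6.85% lower. In estrus against immature oviduct they did not overlap for 1, the lower Axl, where 9.8% of all did not, 3.19% higher and 6.62% lower. The median log2 difference of the 10 was 0.21 for diestrus minus immature, -0.07 for estrus minus immature and 0.26 for diestrus minus estrus, beside 0.01, 0.01 and -0.01 over all probe sets.

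**Figure D2:**
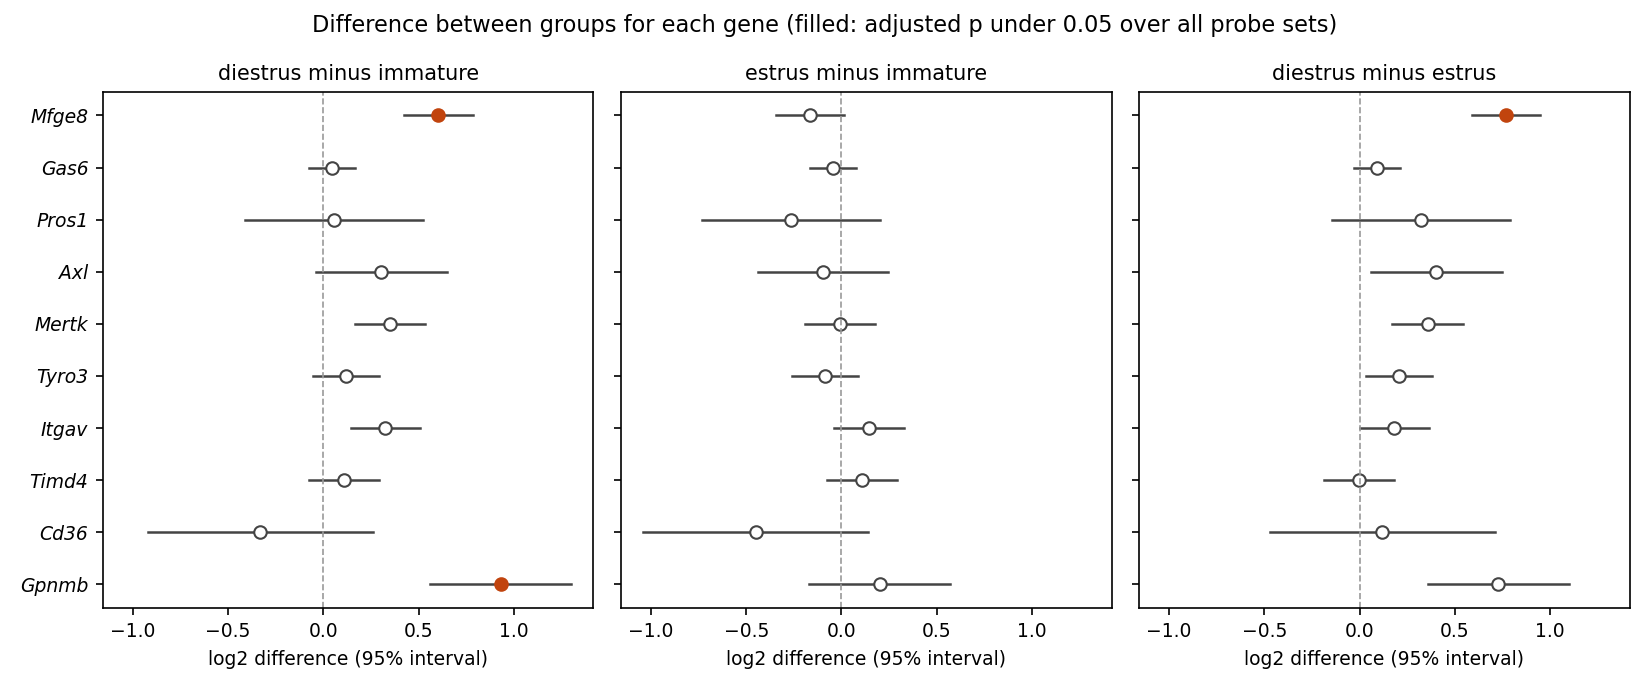
Log2 difference between groups for each gene with its 95% interval, in 3 comparisons, with filled points for an adjusted p under 0.05 over all probe sets. Mfge8 (0.60 and 0.77) is filled in both comparisons with diestrus on top and Gpnmb (0.93) in the one with immature oviduct, and no gene is filled for estrus minus immature. The genes were picked with such results known.

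Diestrus 3 held the highest value of the 9 arrays for 4 of the 10 genes, Pros1, Axl, Mertk and Gpnmb, and it also held the highest macrophage, endothelial and smooth muscle values. Over 11 measured of 12 macrophage markers, summed log2 values were 99.4 to 103.8 in diestrus, 97.6 to 98.0 in estrus and 96.9 to 99.4 in immature oviduct, with 103.8 on diestrus 3, where 9 of the 11 peaked. Fcgr1, Cd163, Ms4a7 and Itgam lay below the array median throughout. All 11 had higher means in diestrus than in immature oviduct (median 0.28) and none was called by limma, with 7 at an unadjusted p under 0.05, where 13.4% of all probe sets were. In diestrus against estrus 10 of 11 had higher means (median 0.36), 0 were called and 5 had an unadjusted p under 0.05, where 9.33% of all had. In estrus against immature oviduct 4 of 11 had higher means (median -0.04), with 0 called and 0 at an unadjusted p under 0.05, where 6.52% of all probe sets were. The abundant lysozyme gene Lyz2 differed by 0.48 ± 0.16 between diestrus and immature oviduct, and the endotoxin co-receptor gene Cd14 by 0.58 ± 0.18 (limma adjusted p = 0.23 and 0.188).

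For 8 smooth muscle markers the sums were 87.6 to 93.7 in diestrus, 87.8 to 88.5 in estrus and 86.8 to 88.8 in immature oviduct. For 8 endothelial markers they were 71.3 to 75.4 in diestrus, 70.8 to 72.0 in estrus and 71.8 to 73.2 in immature oviduct. All 8 smooth muscle markers and all 8 endothelial markers were highest on diestrus 3, with Tie1 equal to 2 decimals on diestrus 1. The 7 dendritic cell markers summed to 59.0 to 60.0 in diestrus, 59.2 to 59.7 in estrus and 58.2 to 58.6 in immature oviduct. Of these 7, 5 lay below the array median on all 9 arrays. Limma called 0 of the smooth muscle, endothelial and dendritic cell markers in any of the 3 comparisons. At an unadjusted p under 0.05 there were 1, 0 and 2 for diestrus minus immature (13.4% of all probe sets). There were 0, 0 and 1 for estrus minus immature (6.52%) and 1, 1 and 0 for diestrus minus estrus (9.33%). Across the 9 arrays, the mean of the macrophage markers correlated with Axl at 0.94, Gpnmb at 0.84 and Mertk at 0.82. For the other genes of the 10 it lay between 0.02 and 0.68, with 0.62 for Pros1. Such values were not particular to macrophage markers. The mean of the smooth muscle markers correlated with Axl at 0.89, Gpnmb at 0.71, Mertk at 0.50 and Pros1 at 0.77. For the endothelial markers these were 0.85, 0.57, 0.50 and 0.57, and for the dendritic cell markers 0.27, 0.66, 0.43 and -0.12. The part of these cell types in the values of the 10 genes was not tested. Without diestrus 3, Mertk differed by 0.30 between diestrus and immature oviduct and by 0.31 between diestrus and estrus, and Mfge8 by 0.65 and 0.82. Diestrus 3 was the highest diestrus pool for Mertk and the lowest for Mfge8, which fixes the direction of these changes.

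**Figure D3:**
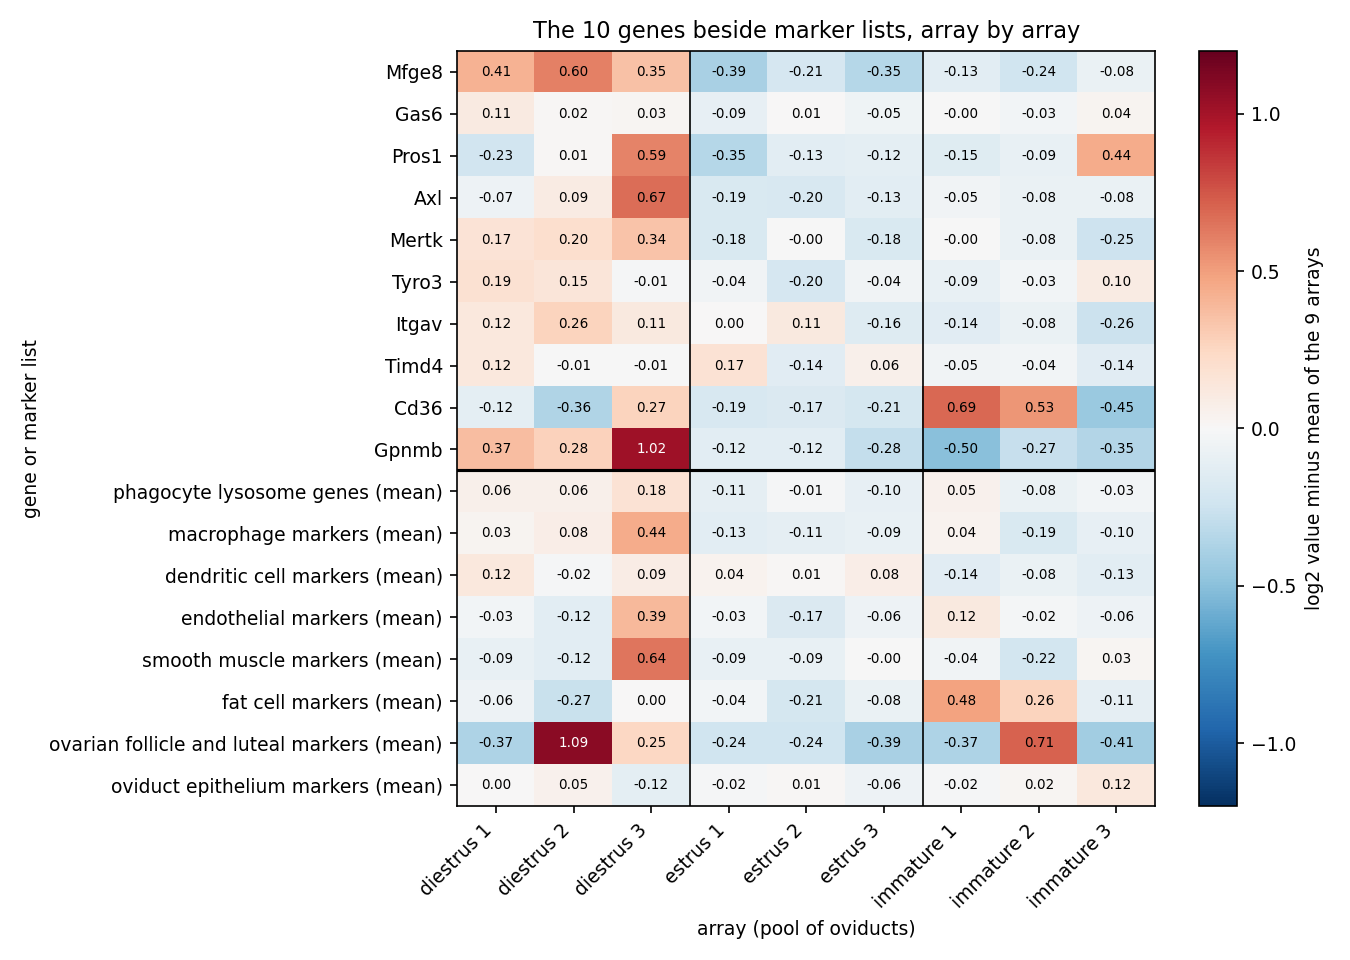
Log2 values minus the mean of the 9 arrays, for the 10 genes (upper block) and for the means of marker lists (lower block), with arrays as columns. Diestrus 3 is high for Pros1, Axl, Gpnmb and the macrophage, endothelial and smooth muscle lists, immature 1 and 2 for Cd36 and the fat cell list, and Mfge8 is high on all 3 diestrus arrays.

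Outside the 10 genes, other parts of the pathway were followed through lists of genes of known role, which were also drawn up with results of these arrays known, so that the p-values printed for their genes are not independent evidence. In the machinery that closes and clears the phagosome, 1 of 12 measured genes was called higher in diestrus than in immature oviduct, where 1.0% of all probe sets were called, and the same 1 in diestrus against estrus, where 0.159% were. Abca1, the transporter that exports cholesterol from phagocytes after a meal, had 10.31, 10.52 and 10.43 in diestrus, 9.52, 9.74 and 9.24 in estrus, and 9.43, 9.64 and 9.45 in immature oviduct. Its diestrus pools lay above all others. The difference was 0.91 ± 0.12 against immature oviduct and 0.92 ± 0.12 against estrus (limma adjusted p = 0.013 and 0.0229), 1.88-fold and 1.89-fold in intensity, higher in 3 of 3 pools. The first call was lost without diestrus 2 (0.86), immature 1 (0.88) or immature 3 (0.88), and the second without diestrus 1 (0.97), diestrus 2 (0.87), estrus 1 (0.93), estrus 3 (0.79), immature 2 or immature 3 (0.92 for both). Over all probe sets, calls against immature oviduct fell from 282 to 45 without diestrus 2, 58 without immature 1 and 52 without immature 3. The GTPase gene Rac1, which drives the actin cup, differed by -0.09 ± 0.05 between diestrus and immature oviduct (limma adjusted p = 0.495), and the list's median was -0.03, against 0.05 for diestrus minus estrus. Vav1 and Abca7 of this list lay below the array median on all 9 arrays.

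Of 24 measured genes of the phagocyte lysosome, 19 had higher means in diestrus than in immature oviduct (median 0.07) and 21 had higher means in diestrus than in estrus (median 0.13), and limma called 0 in either. Over all probe sets 53.5% and 46.8% of means were higher in these comparisons. Atp6v0d2 of this list lay below the array median on all 9 arrays. At an unadjusted p under 0.05 there were 10 of 24 and 12 of 24, where 13.4% and 9.33% of all probe sets were. Psap, the precursor of the saposins that help lysosomal enzymes reach lipids, differed by 0.20 ± 0.06 against immature oviduct and by 0.24 ± 0.06 against estrus (limma adjusted p = 0.163 and 0.17). The protease gene Ctsb differed by -0.05 ± 0.06 and -0.10 ± 0.06 (limma adjusted p = 0.787 and 0.734). Ctsd, which encodes the aspartic protease cathepsin D and was named after its values had been seen, had the largest differences of the list, 0.75 ± 0.16 against immature oviduct and 0.66 ± 0.16 against estrus (limma adjusted p = 0.0731 and 0.18). In estrus against immature oviduct 7 of 24 had higher means (median -0.05), with 0 called and 2 at an unadjusted p under 0.05, where 6.52% of all probe sets were.

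The 18 other engulfment receptors had a median difference of 0.09 for diestrus minus immature, with 17 means higher, where 53.5% of all probe sets were. For diestrus minus estrus the median was 0.04, with 12 higher, where 46.8% of all were. Adgrb1, Stab2, Havcr1, Timd2, Megf10, Cd300a, Cd300lf, Msr1, Marco and Olr1 lay below the array median on all 9 arrays, so detection of their RNA was not established. Limma called 0 receptors in each comparison, and 3 and 4 had an unadjusted p under 0.05, where 13.4% and 9.33% of all probe sets had. Lrp1, a large endocytic receptor that pairs with calreticulin, differed by 0.22 ± 0.09 against immature oviduct and 0.36 ± 0.09 against estrus (limma adjusted p = 0.32 and 0.192). Other bridging molecules and opsonins had medians of 0.04 in both comparisons over 12 genes. Of these, Edil3, Tub, Tulp1 and Ptx3 also lay below the array median on all 9 arrays. Limma called 0, and 1 and 0 had an unadjusted p under 0.05, beside the same 13.4% and 9.33%. Annexin A5 (Anxa5), which binds phosphatidylserine, differed by -0.07 ± 0.06 and calreticulin (Calr), an eat-me signal, by -0.13 ± 0.05 between diestrus and immature oviduct (limma adjusted p = 0.634 and 0.288).

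The 12 genes of find-me, eat-me and don't-eat-me signals, which include receptors that sense them such as Cx3cr1 and P2ry6, had medians of 0.04 and 0.05. P2ry2, Xkr4 and S1pr1 lay below the array median on all 9 arrays and P2ry6 on 8, so detection of their RNA there was not established. Limma called 0, and 2 and 1 had an unadjusted p under 0.05, where 13.4% and 9.33% of all probe sets had. Among them Cd47, the don't-eat-me signal, differed by 0.12 ± 0.07 between diestrus and immature oviduct (limma adjusted p = 0.528). Mitf, Tfeb, Tfe3 and Tfec, the family of transcription factors that controls lysosomal genes and, in melanocytes and osteoclasts, Gpnmb, had medians of -0.06 and -0.03, with 0 called and 0 at an unadjusted p under 0.05. Mitf differed by 0.21 ± 0.12 between diestrus and immature oviduct (limma adjusted p = 0.52), and Tfec lay below the array median on all 9 arrays. In estrus against immature oviduct limma called 0 genes of the machinery, the receptors, the opsonins, the signals and the transcription factors. There 3, 1, 0, 0 and 0 had an unadjusted p under 0.05, beside 6.52% of all probe sets.

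**Figure D4:**
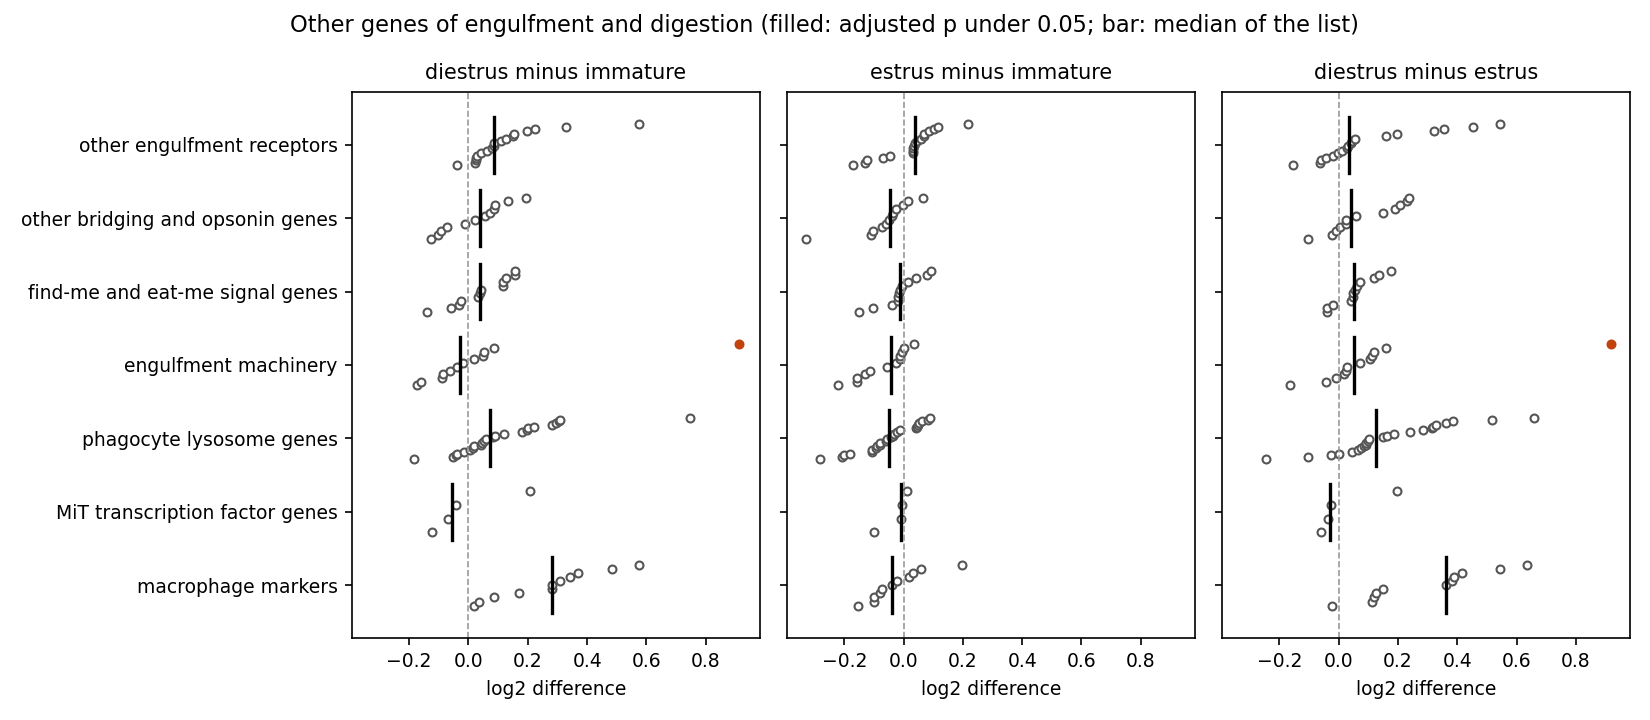
Log2 difference of each gene of 7 lists in 3 comparisons, with a bar at the list's median and filled points for an adjusted p under 0.05. The 1 filled gene, Abca1, stands at 0.91 for diestrus minus immature and at 0.92 for diestrus minus estrus.

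Within the 10 genes, values across the 9 arrays were most alike for Gpnmb and Mertk (Pearson r = 0.85), Mfge8 and Mertk (0.84) and Gpnmb and Axl (0.83). These are descriptions over 9 arrays that share groups and normalization. Among 10446 other named genes above the median level, the 3 most like Mfge8 were Pik3ip1 (r = 0.98), Psap (0.98) and Glb1l2 (0.97). For Gpnmb they were Atp8a1 (0.97), Rora (0.96) and Scara5 (0.94), and for Mertk Vat1 (0.97), Samhd1 (0.95) and Prxl2c (0.95). Axl was most like Plac8 (0.99), Gem (0.98) and Cdh11 (0.98). Cd36 was most like Ccdc69 (0.93), S100a10 (0.92) and the fat cell gene Retn (0.88).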

How the data were processed

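RNA of pooled oviducts was measured on 9 arrays. The deposited log2 intensities came from Affymetrix Expression Console with RMA, per the submitters' processing notes. RMA corrects the background, quantile-normalizes between arrays and summarises by median polish. Software versions were not stated there, and the log base was judged from the range of the values. Symbols came from the platform's annotation. All 28214 probe sets were fitted in limma 3.58.1 (R 4.3.3; lmFit, eBayes, two-sided) with the 3 groups together and 6 residual and 3.60 prior degrees of freedom. P-values were adjusted by Benjamini-Hochberg over all probe sets, and they measure the spread between pools. Labels give pools, not separate cohorts.

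The members and lists were chosen with earlier results of these data known. All 10 members are described. From each other list up to 4 called genes and up to 3 others of highest mean could be named, and likeness was Pearson's r over 9 arrays. Of 149 genes in 13 other lists, 139 had a probe set with 1 symbol, and the highest mean stood for genes with several. The others were not analysed here. On simulated data for diestrus minus immature (28214 probe sets), 78 of 100 changes of 1.5-fold and 100 of 100 of 4-fold were called, with 7 false calls. The simulated noise was normal and independent between probe sets and arrays, around real means and residual SDs. It held no shift shared by many probe sets of 1 array, as on diestrus 3, so these counts need not hold for the real pools. Python 3.11.15, pandas 2.3.3 and matplotlib 3.10.9 made tables and figures.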

Additional observations from a re-analysis of the deposited data

How the results depend on the processing

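The count of members called in diestrus against immature oviduct was 2 as reported, and it was 1 (Mfge8) with a replicate block, with the low-intensity filter, after quantile normalization again, after cyclic loess and with only the arrays compared. It was 4 with array weights and 0 without the arrays immature 2 and diestrus 2 or without the arrays immature 1 and immature 2. The low-intensity filter removed Gpnmb, Timd4 and Cd36 before any test. Leaving out 1 array gave 0 to 2. In diestrus against estrus the count was 1 as reported, 5 with array weights, and 0 with only the arrays compared, without immature 2 and diestrus 2, or without immature 1 and immature 2, with 0 to 1 when 1 array was left out. It was 1 with the replicate block. In estrus against immature oviduct it was 0 in all 20 settings. Over all probe sets the calls were 282, 24 and 45 for diestrus minus immature, estrus minus immature and diestrus minus estrus, and ran from 4 to 1288, from 1 to 1023 and from 0 to 3331 over the settings. Mfge8 kept its direction in the 20 settings, at 0.49 to 0.67 against immature oviduct and 0.70 to 0.85 against estrus, and Gpnmb in the 19 that measured it, at 0.70 to 1.12 and 0.50 to 0.87.

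Directions turned for differences that had not been called. Pros1 in diestrus minus immature became -0.0085 with array weights and -0.32 without immature 1 and 2, and ran from -0.18 to 0.24 when 1 array was left out. Cd36 became 0.38 in diestrus minus immature and 0.26 in estrus minus immature without immature 1 and 2, and in diestrus minus estrus -0.0004 with array weights and -0.0527 to 0.2638 with 1 array left out. Mertk in estrus minus immature became 0.0088 without immature 2 and diestrus 2 and 0.13 without immature 1 and 2, from -0.0772 to 0.0463 with 1 array left out. Timd4 in diestrus minus estrus became 0.0213 without immature 2 and diestrus 2, from -0.0865 to 0.0705 with 1 array left out. The causes were not tested. Where a group kept 1 array, it was assumed to vary like the others. Deviations from the group mean correlated between -0.29 and 0.17 for same-numbered arrays and between -0.26 and 0.29 for differently numbered ones. Between diestrus and estrus, same-numbered pairs lay at 0.06 to 0.17 and the others at -0.125 to 0.007. With 3 arrays a group such deviations offset each other, so whether a number marks a shared batch was not settled. Dim values, as for Timd4, Cd36 and most of Gpnmb, limit what the arrays can show.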

Other observations

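Mfge8 is one of the proteins of the milk fat globule, the lipid droplet that mammary cells release wrapped in membrane, and other genes of that particle were looked up after Mfge8 had been seen, so no test is given. Xdh, the xanthine oxidoreductase that anchors the droplet to the membrane, had log2 values of 10.19, 10.51 and 10.06 in diestrus, 9.46, 9.84 and 9.5 in estrus, and 9.58, 9.66 and 9.84 in immature oviduct. The mucin gene Muc1, whose protein also coats oviduct epithelium, had 11.23, 11.10 and 11.49 in diestrus, 10.78, 10.69 and 10.60 in estrus, and 10.91, 10.98 and 11 in immature oviduct. In both genes every diestrus pool lay above every other pool, as for 2.12% of all probe sets. Nothing is read from that, since the genes were looked up after Mfge8 had been seen. The other 4 looked up did not separate diestrus from both groups. Plin2, which coats lipid droplets, stood at 10.16 to 10.60 in diestrus, 10.27 to 10.43 in estrus and 10.13 to 10.47 in immature oviduct. Fabp3 stood at 10.81 to 11.11 in diestrus, 10.90 to 11.16 in estrus and 10.65 to 11.03 in immature oviduct. Btn1a1, the butyrophilin of milk, and Muc15 lay below the array median on all 9 arrays.

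Nuclear receptors that control uptake and efflux genes in macrophages were looked up in the same way, again with no test. Pparg was lower on every diestrus array than on any other, with 9.01, 9.04 and 9.01 in diestrus, 9.27, 9.36 and 9.45 in estrus, and 9.30, 9.43 and 9.06 in immature oviduct. The nearest immature pool was 0.019 away. Of all probe sets, 10.9% were lower without overlap in diestrus than in immature oviduct, and 6.85% in diestrus than in estrus. The share lower than both groups at once was not counted, so nothing is read from this order. Nr1h3, the liver X receptor alpha gene, stood at 8.42 to 8.54 in diestrus, 8.39 to 8.42 in estrus and 8.37 to 8.45 in immature oviduct, below the array median throughout. Of the 6 measured out of 7 looked up, Pparg was the 1 whose diestrus arrays did not overlap with either other group. Nr1h3, Rxra, Rxrb, Ppard and Nr4a1 overlapped between diestrus and both.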
